A study of Mus musculus with 577 samples.

Results

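The 84 cytosolic ribosomal protein (RP) genes of the mouse were followed through single embryonic stem cells, granulosa cells and oocytes. A gene was a member if it was listed as protein-coding and its symbol was that of a large-subunit protein (Rpl or Rplp, 51 genes) or a small-subunit protein (Rps or Rpsa, 33 genes), without the ribosomal S6 kinases. These were 84 of 22060 protein-coding genes, and the rule used names only, so no measured value chose them. GENCODE annotates 83 of them as protein-coding and 1, Rps4l, as a transcribed processed pseudogene.

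The ribosome joins a large and a small subunit, each built from ribosomal RNA and a near-fixed set of RP, so RP mRNAs are made in proportion and rank among the most abundant mRNAs of growing cells. Their mRNAs start with a C followed by a run of pyrimidines, the terminal oligopyrimidine (TOP) tract, through which mTOR signalling sets their translation. A growing oocyte stores ribosomes and mRNAs that later serve the embryo, and a few RP have paralogs that are used in germ cells, muscle or stem cells.

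The study tested DRaqL, a lysis that recovers RNA with a denaturing detergent and then quenches the detergent, on single cells cut from tissue sections by laser capture microdissection (LCM). All oocytes and granulosa cells (GCs) came from ovaries of 8-week-old female mice, frozen, sectioned, fixed in alcohol unless stated, and stained. Embryonic stem cells (mESCs) grew in 2iLIF and were taken fresh, with SC3-seq (45 cells), or by LCM from sections of frozen cell blocks, with DRaqL-SC3-seq (36 cells). DRaqL-SC3-seq was also applied to 14 oocytes of primary follicles, 30 oocytes of secondary to antral follicles, 31 GCs neighboring the oocyte, 26 non-neighboring GCs, 14 pools of 10 GCs (7 neighboring, 7 non-neighboring), 7 bulk GC samples and 16 sections that cut 8 oocytes serially. Other oocytes and GCs went through a 3′-end kit, SMART-Seq v4 3′ DE, with or without DRaqL, with LCM-seq or DRaqL-Smart-seq2 (GCs alone), or with DRaqL-Protease-Smart-seq2 after 24 h in formalin. A last set came from 1 mouse, with 1 ovary dissociated fresh into grown oocytes and GCs for Smart-seq2 and the other ovary taken through LCM and DRaqL-Smart-seq2. The labels name no animal for the other cells, so each group of single cells was treated as 1 sample: values are given with their SD over cells, and no p-value was computed for them. The pools and bulk samples were the only replicated groups, and nothing in the labels says that they came from separate animals, so their p-values measure the spread between these samples, which may be technical.

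In all, 562 libraries held gene counts, with totals from 12748 to 17506401 protein-coding counts, and 32 of them held under 100000. By the study's methods the counts stem from the 3′ ends of mRNAs. Levels were therefore expressed as reads per 1000000 protein-coding counts (RPM) without division by length, and averaged as log2(RPM + 1). For the mouse whose ovaries were split the study showed levels in TPM, so the 3′ origin of those counts is less certain. Of the marker genes, the 14 oocyte markers had a median of 36921 RPM in secondary-antral oocytes and 2.46 RPM in LCM mESCs, and the 5 pluripotency markers 140 and 1499 RPM. The neighboring GCs held a median of 2943 RPM of oocyte markers against 64.2 RPM in the non-neighboring GCs, so GC shares are also given without the 16 GCs that held over 10% of the oocytes' marker level. The fresh and LCM labels of the mESCs are in doubt: 10 mESCs were also read with Y-shaped adapters, and 10 of 10 of these libraries were most like a 3′-end library of the other label (Pearson's r 0.724 to 0.852 across 3736 genes, with the next library at 0.128 or less). The 3′-end libraries labelled fresh held a median of 10644 detected genes and those labelled LCM 9845. Which of the tables carries the labels in error cannot be told apart, so mESCs are called fresh or LCM as the 3′-end libraries are labelled.

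The start of the mRNA is shown first, because the TOP tract lies there and played no part in the choice of members by name. A start window of 300 bases was at hand from RefSeq (GRCm38.p6) for 63 of the 84 members. In 13 of the 63 (20.6%) the annotated start was a C followed by at least 4 more pyrimidines, against 3.01% of all 27025 genes in the same collection. Within 5 bases of the annotated start the same tract was present in 29 members (46%), against 21.2% of all genes. The tract was searched on the transcribed strand alone, and its letters are C and T. The windows run from 10 bases before the annotated start to 20 bases from it on, and capitals mark a tract that begins at the annotated start. The first 4, members with the tract at the annotated start, show its range. The paralogs Rpl39l, Rpl10l and Rpl22l1 follow because their own levels are described below for cell types or oocyte stages.
Rpl15 (chr14:18270967-18270996, minus strand): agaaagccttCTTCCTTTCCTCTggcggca
Rps6 (chr4:86857348-86857377, minus strand): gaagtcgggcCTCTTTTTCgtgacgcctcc
Rps27 (chr3:90213629-90213658, minus strand): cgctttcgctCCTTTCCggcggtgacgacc
Rplp2 (chr7:141447641-141447670, plus strand): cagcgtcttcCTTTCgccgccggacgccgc
Rpl39l (chr16:10170218-10170247, plus strand): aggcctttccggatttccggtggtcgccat
Rpl10l (chr12:66284382-66284411, minus strand): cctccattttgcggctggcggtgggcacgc
Rpl22l1 (chr3:28805498-28805527, plus strand): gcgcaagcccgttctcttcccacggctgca
Rpl39l and Rpl10l had no tract within 5 bases of the annotated start, and Rpl22l1 had none at the start but had it within 5 bases. A match describes the letters at an annotated start, which need not be the start used in these cells.

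Paralogs can be counted apart only if their mRNAs differ where they are read. The mRNA of Rpl39, the smallest protein lining the exit tunnel, and that of its paralog Rpl39l are shown in full coding length, because Rpl39l had the highest difference of the members kept between secondary-antral oocytes and LCM mESCs, 3.53 on the log2 scale. Capitals mark the bases at which they differ.
Rpl39 (gene at chrX:37082520-37085402, minus strand, 3 exons): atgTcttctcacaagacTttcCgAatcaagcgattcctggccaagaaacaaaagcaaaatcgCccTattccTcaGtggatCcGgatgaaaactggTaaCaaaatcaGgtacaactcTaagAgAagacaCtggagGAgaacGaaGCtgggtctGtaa
Rpl39l (gene at chr16:10170226-10174911, plus strand, 3 exons): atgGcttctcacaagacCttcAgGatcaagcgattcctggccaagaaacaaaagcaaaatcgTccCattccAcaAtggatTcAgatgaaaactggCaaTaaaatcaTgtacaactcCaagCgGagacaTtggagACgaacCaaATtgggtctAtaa
Both coding sequences matched at 133 of 156 bases (85.3%), but in the last 300 bases of the mRNAs, where the reads start, the longest identical run was 7 bases. In the other pairs the longest run at the 3′ end was 9 bases for Rpl10 and Rpl10l, for Rpl22 and Rpl22l1, for Rpl7 and Rpl7l1 and for Rps27 and Rps27l, 17 bases for Rpl3 and Rpl3l, and 26 bases for Rps4x and Rps4l. Rpl10l (chr12:66283379-66284401) is a single-exon copy of the X-linked Rpl10 (chrX:74270812-74273135, 6 exons), and Rps4l (chr6:148354656-148355598) is an intronless copy of the X-linked Rps4x (chrX:102184941-102189394, 7 exons) that matched 632 of 789 aligned coding bases of it (80.1%).

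Among single cells prepared with DRaqL-SC3-seq, RP genes took the largest share in mESCs and the smallest in oocytes. In the 3′-end libraries the 84 genes held 11.5% ± 1.80 (SD, n = 36) of the protein-coding counts of LCM mESCs, 9.39% ± 2.28 (n = 57) of those of GCs, 6.68% ± 0.832 (n = 14) of those of primary oocytes and 4.50% ± 1.47 (n = 30) of those of secondary-antral oocytes. Single libraries ranged from 8.68 to 16.4% in LCM mESCs, from 3.83 to 16.1% in GCs and from 2.82 to 8.14% in secondary-antral oocytes, so the mESCs did not overlap the secondary-antral oocytes, while the GCs overlapped both. The large-subunit genes held 1.56 ± 0.112 counts per small-subunit count in LCM mESCs, 1.41 ± 0.188 in GCs and 1.53 ± 0.0911 in all 44 oocytes. The mESC and ovary libraries were sequenced and tabulated apart, so levels set across them carry any difference between these tables.

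**Figure D1:**
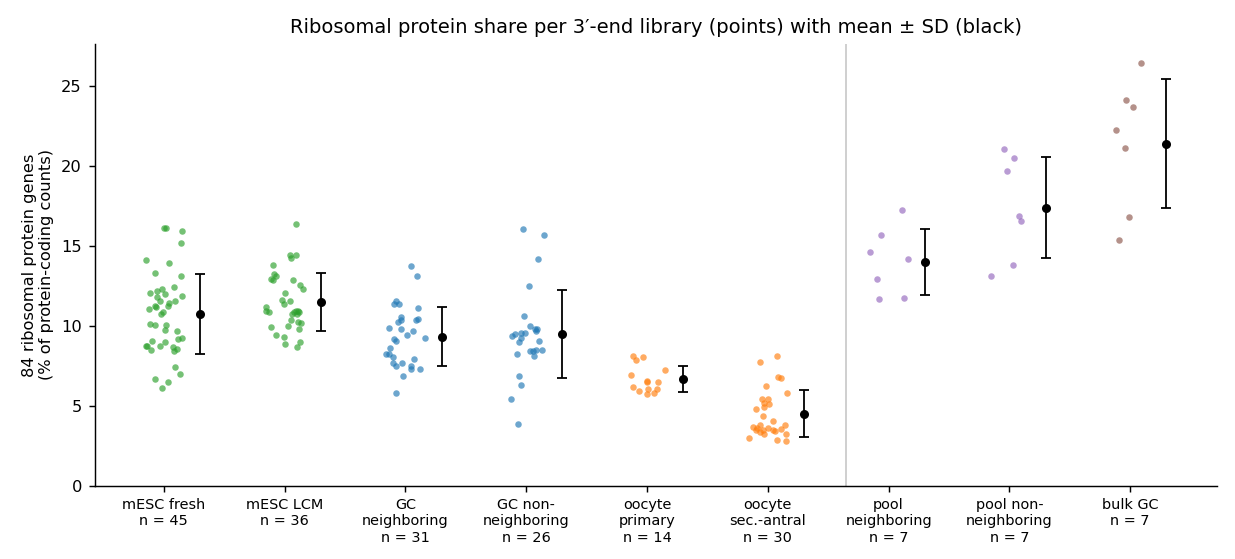
Share of the protein-coding counts held by the 84 RP genes (y axis, %) in each DRaqL-SC3-seq or SC3-seq library (points), by group, with the mean ± SD in black; groups right of the grey line are pools of 10 GCs and bulk GC samples. Means run from 4.50% in secondary-antral oocytes to 21.4% in bulk GC samples.

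Paralogs made up most of the low end of the levels. The median member stood at 9.84 in LCM mESCs, 9.79 in GCs and 9.02 in oocytes (mean log2(RPM + 1), oocytes of both stages together). Over the mean of the 3 cell types the most abundant members were Rpsa at 11.3, Rps4x at 10.98, Rplp0 at 10.97 and Rpl13 at 10.96. The least abundant were Rpl3l at or near 0 in each, then Rpl39l at 3.65, Rpl10l at 3.92, Rpl7l1 at 5.17 and Rpl21 at 6.11. Rpl3l, a muscle paralog of Rpl3, was listed with 1 count in 36 LCM mESCs, 4 counts in 57 GCs and 2 counts in 44 oocytes. Rpsa and Rplp0 stood highest in mESCs and lowest in oocytes: Rpsa, a small-subunit protein also named the laminin receptor, stood at 12.94 in mESCs, 11 in GCs and 9.97 in oocytes, and Rplp0, the base of the stalk that calls translation factors to the ribosome, at 12.55, 10.92 and 9.43. Rplp0 is the gene Arbp, by whose PCR signal the study kept or dropped amplified cells, so its level in kept cells is not independent of that choice. The acidic stalk proteins Rplp1 and Rplp2 differed less between mESCs and GCs, by -0.30 and 0.22 (GCs minus mESCs).

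After each cell type was set to its own median, 5 members differed most between the types: Rps4l, Rpl39l, Rpl10l, Rps15 and Rpl21. Rps4l ranged over 7.47 on the log2 scale, with 208.7 to 1188 RPM and none at 0 in the 36 LCM mESCs, but 0 counts in 19 of 31 neighboring and 15 of 26 non-neighboring GCs. Rpl10l, which in the testis replaces Rpl10, stood at 7.10 ± 0.946 in LCM mESCs, 3.06 in oocytes and 1.62 in GCs. Rpl39l stood highest in oocytes, at 6.56, with 3.54 ± 2.22 in LCM mESCs and 0.83 in GCs. Rps15, a small-subunit protein, went the other way, with 6.77 in LCM mESCs, 9.27 in GCs and 9.49 in oocytes. Rpl21 stood at 8.66 in LCM mESCs and at 5.12 and 4.55 in GCs and oocytes. In the 4 tables that list RP pseudogenes, 12 pseudogene rows of Rpl21 took 74.8 to 91.2% of the reads of gene and pseudogenes, so its level there is a lower limit.

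Differences from mESCs were higher for short members than for long ones. Across the 82 members kept with a known coding length, the difference between secondary-antral oocytes and LCM mESCs was lower at greater coding length, with Spearman's rho -0.82 and Pearson's r -0.80 on log2 length. The members up to the median coding length of 471 bases had a median difference of -0.16, and the longer ones -2.15. Between GCs and LCM mESCs rho was -0.70 over 81 members, with medians of 0.59 and -0.65. Between secondary-antral oocytes and GCs, which were in the same table, rho was -0.69 over 80 members, with medians of -0.46 and -1.43. Over all 5705 genes kept in the comparison of secondary-antral oocytes and mESCs rho was 0.06. These are correlations across genes, which are not independent replicates, and the 3 comparisons share their libraries pairwise. Among the long members with large differences were Rpl3 at -3.98, Rps2 at -3.87 and Rpl9 at -4.56 (secondary-antral oocytes minus LCM mESCs). Among the short ones were Rpl37 at 2.40, Rpl35 at 2.15, Rpl39 at 2.14 and Rps15 at 2.66. Where RP pseudogenes were listed, they took 76.4 to 88.1% of the reads of gene and pseudogenes for Rps2. For Rpl9 they took 59.8 to 63.6% and for Rpl3 51.4 to 65.4%. For the short ones it was 0% for Rpl37, at most 0.0738% for Rpl35, 33.35 to 42.18% for Rpl39 and 16.5 to 34.4% for Rps15. The part of pseudogenes in these differences was not tested.

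**Figure D2:**
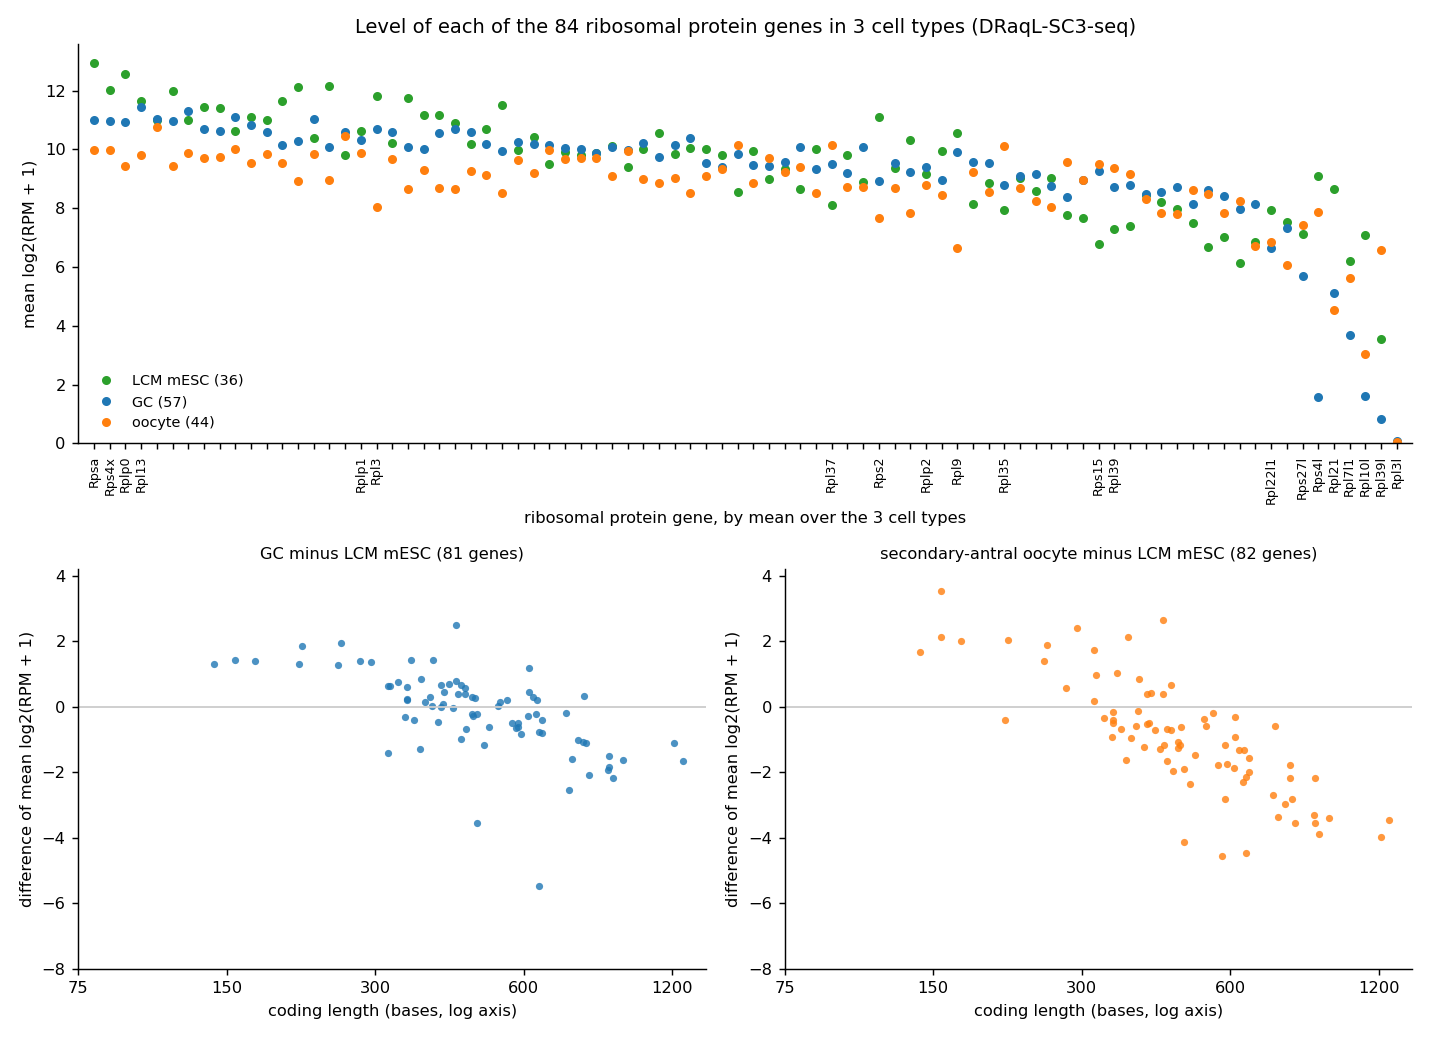
Top, level of each RP gene (mean log2(RPM + 1), y axis) in LCM mESCs (36), GCs (57) and oocytes (44), ordered by the mean over the 3 cell types, with names for genes described in the text. Bottom, difference of GCs (left, 81 genes) or secondary-antral oocytes (right, 82 genes) from LCM mESCs on the log2 scale against coding length (log axis), with rho -0.70 and -0.82.

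Secondary-antral oocytes held less RP mRNA relative to other mRNA than GCs of the same sections. The share was lower by 4.89 percentage points, and by 5.00 without those 16 GCs. With the 3 GCs that the study left out for profiles mixed with those of oocytes, the difference was -4.9 percentage points. Of the 81 members kept (mean log2 level of both groups at least 4), 67 stood lower and 14 higher in the oocytes, with a median difference of -0.91. At least 2-fold lower were 39 members, against 9.06% of the 4659 genes kept, and at least 2-fold higher were 6, against 73.2% of the genes kept. The median gene stood at 2.47 on this scale, beside a median of 7324 genes detected in the GCs and 13583 in the secondary-antral oocytes. As the log2 ratio of mean RPM, an alternative chosen after the data were seen, the median was 0.05 for all genes and -1.16 for the members. The lowest members were Rpl9 (5.99 ± 1.31 in oocytes, 9.90 ± 0.764 in GCs), Rpl3 at -2.87, Rps3 at -2.48, Rps9 at -2.19 and Rps3a1 at -2.12. The highest were Rps4l at 6.02, Rpl7l1 at 1.96, Rps27l at 1.58, Rpl35 at 1.29 and Rpl36 at 1.12; Rpl39l and Rpl10l did not pass the filter on low values.

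Other genes of translation did not follow a single pattern in the same comparison. Of 23 further genes of the TOP class, such as elongation and initiation factors, 7 were at least 2-fold lower, against 9.06% of all genes kept. At least 2-fold higher were 4, against 73.2%. The median of this class was -0.14, from Eef1g at -2.56 and Pabpc1 at -2.07 to Eif3k at 2.08 and Eef1d at 2.63. Of 29 ribosome biogenesis genes 17 were kept, of which 13 were at least 2-fold higher and 0 lower, a share near the 73.2% of all genes kept, and their median of 1.61 was below the 2.47 of all genes, from Fbl at -0.29 and Nop56 at 0.13 to Ltv1 at 4.39 and Lyar at 4.63. Of 77 mitochondrial ribosomal protein genes 62 were kept, of which 59 were higher and 1 lower, with a median of 2.85, from Mrps28 at -2.61 and Mrpl23 at 0.67 to Mrps33 at 5.02 and Mrpl55 at 5.35.

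The RP share was lower in secondary-antral than in primary oocytes in each of the 4 preparations that held both stages. With DRaqL-SC3-seq it was 4.50% ± 1.47 (n = 30) against 6.68% ± 0.832 (n = 14), and the cells overlapped. With SMART-Seq v4 it was 4.40% ± 1.17 (n = 11) against 9.53% ± 0.440 (n = 7), with the SMART-Seq v4 kit after DRaqL 3.38% ± 0.655 (n = 9) against 9.50% ± 0.914 (n = 6), and after formalin 1.84% ± 0.343 (n = 7) against 3.57% ± 0.922 (n = 5). By the study's account its amplification methods were run on sections of 1 ovary, so the 4 preparations need not stand for separate animals. In the last 3 preparations no secondary-antral oocyte reached the lowest primary oocyte: the closest values were 7.29 against 9.05%, 4.54 against 8.01% and 2.25 against 2.72%.

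Most members took part in this difference. With DRaqL-SC3-seq 73 of the 82 members kept stood lower in secondary-antral oocytes, with a median of -0.63 beside 0.30 over all genes; 22 were at least 2-fold lower, against 14.9% of all genes, and 2 at least 2-fold higher, against 29.9%. With SMART-Seq v4 52 of 82 were at least 2-fold lower (16.9% of all genes) and 0 higher (25.6%), with a median of -1.21 beside 0.10. With DRaqL and SMART-Seq v4 62 of 82 were lower (21.8%) and 1 higher (32.1%), with a median of -1.52 beside 0.20. After formalin 35 of 81 were lower (25.4%) and 0 higher (24.7%), with a median of -0.95 beside -0.08. Of the 81 members kept in all 4 preparations, 67 stood below 0 in each and 0 above 0 in each, against 23.9% and 33.7% of the 5168 genes kept in all 4. At least 2-fold lower in each were 10 members, against 4.35% of the genes.

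**Figure D3:**
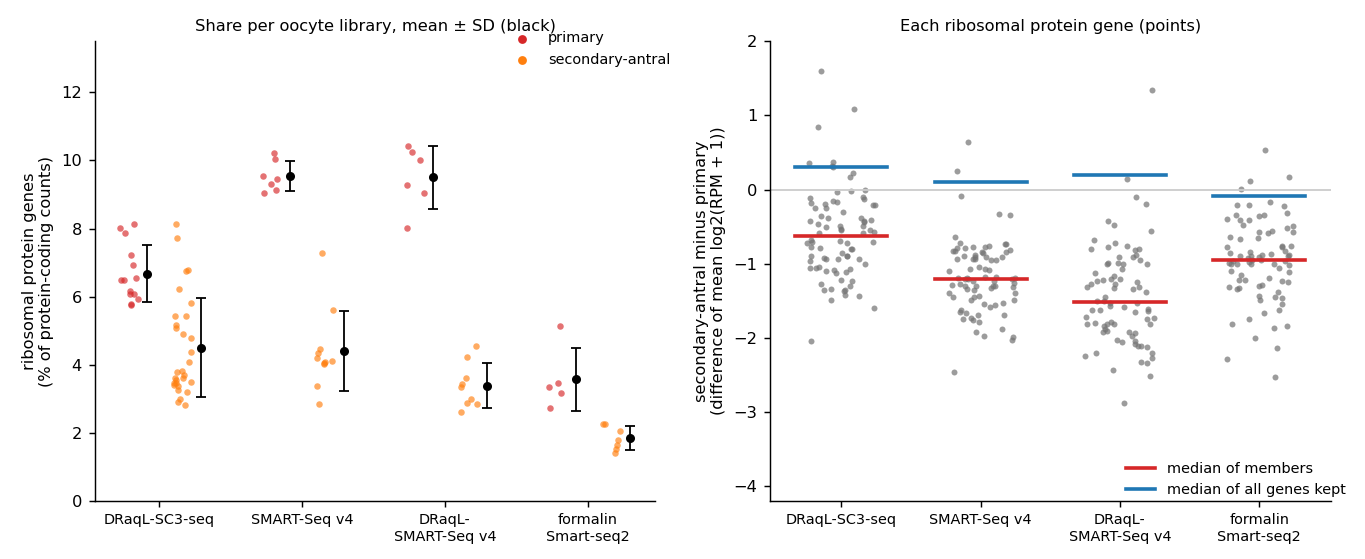
Left, share of the 84 RP genes in each primary (red) and secondary-antral (orange) oocyte library, by preparation, with mean ± SD in black. Right, secondary-antral minus primary difference of each member kept (points, difference of mean log2(RPM + 1)), with the median of the members (red) and of all genes kept (blue); the members' medians run from -0.63 to -1.52.

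Rpl22l1, the paralog of Rpl22, was 1 of the 10 members at least 2-fold lower in every preparation. With SMART-Seq v4 it held 248.1 to 663.8 RPM in primary oocytes (median 447.9) and 76.5 to 265.5 RPM in secondary-antral oocytes (median 102.7). After DRaqL it held 331.7 to 1040 RPM (median 613.5) against 78.6 to 142.0 RPM (median 99.4). After formalin it held 164.9 to 373.6 RPM (median 248.1) against 52.3 to 131.5 RPM (median 87.9). The stages did not overlap in the last 2 of these, and on the log2 scale Rpl22l1 was lower by 1.60, 1.92, 2.51 and 1.54 in the order DRaqL-SC3-seq, SMART-Seq v4, DRaqL and formalin. Rpl9, a large-subunit protein near the stalk, was lower by 2.04, 1.49, 1.88 and 1.01, Rpl12, which lies at the base of the stalk, by 1.49, 1.24, 2.08 and 1.87, and Rps3, which lines the mRNA entry, by 1.42, 1.48, 1.94 and 1.43.

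Other values were not alike across the preparations, and these differences between preparations were not tested. Rpl37a was lower by 1.98, 2.89 and 2.29 in SMART-Seq v4, DRaqL and formalin, with medians of 2011 against 514.8 RPM, 3578 against 416.7 RPM and 711.2 against 174.6 RPM, and by 0.77 in DRaqL-SC3-seq. Rpl37 and Rps29, both short genes, stood at 1.09 and 0.85 (secondary-antral minus primary) in DRaqL-SC3-seq and at -0.33 and -0.74 in SMART-Seq v4. Between the stage difference and coding length, Spearman's rho was -0.55 in DRaqL-SC3-seq, -0.07 in SMART-Seq v4, 0.13 after DRaqL and 0.12 after formalin. The stalk gene Rplp0 stood lower in DRaqL-SC3-seq at 9.16 ± 0.577 against 10.02 ± 0.375, and Rpsa at 9.63 ± 0.785 against 10.69 ± 0.590, with Rplp1 and Rplp2 at -0.51 and -0.36. In the other 3 preparations Rplp0 stood at -0.95, -1.01 and -0.21, and Rplp1 at -0.76, -0.80 and -2.52.

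Rpl39l stood the other way from most members in 3 of the 4 preparations. It stood higher in secondary-antral oocytes by 1.61 in DRaqL-SC3-seq, 0.65 in SMART-Seq v4 and 1.34 after DRaqL, and at -1.81 after formalin. In SMART-Seq v4 its range was 203.2 to 403.2 RPM in secondary-antral and 132.8 to 275.9 RPM in primary oocytes, and in DRaqL-SC3-seq 60.3 to 289.6 RPM against 3.20 to 296.8 RPM, so the stages overlapped. After formalin 1 of the 7 secondary-antral oocytes held 0 counts of it.

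Other TOP genes also had medians below 0 in the 4 preparations, whereas the medians of ribosome biogenesis and mitochondrial ribosomal protein genes lay between -0.11 and 0.64. Of the 23 other TOP genes 10 were at least 2-fold lower with DRaqL-SC3-seq, against 14.9% of all genes, and 1 higher, against 29.9%. The median of these TOP genes was -0.85. They ran from Eef1g at -1.69 and Larp1, a protein that binds the TOP tract, at -1.64 to Hnrnpa1 at 0.34 and Eif3e at 1.26. Their medians in the other 3 preparations were -0.95, -1.03 and -0.67. Over all genes the medians were 0.30, 0.10, 0.20 and -0.08, in the order DRaqL-SC3-seq, SMART-Seq v4, DRaqL and formalin. Ribosome biogenesis genes had medians of 0.64, -0.08, 0.36 and 0.21, and mitochondrial ribosomal protein genes 0.33, -0.11, -0.08 and 0.04.

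A smaller share need not be fewer mRNA molecules, and the spiked ERCC RNA, added in equal amount to each lysate of a preparation, gives a second scale. With SMART-Seq v4 the median RP count per ERCC count was 3.00 in secondary-antral and 1.78 in primary oocytes, a ratio of 1.68, while all protein-coding counts per ERCC count differed by a ratio of 3.88. After DRaqL these ratios were 4.60 and 10.6, and after formalin 2.16 and 3.84. Single oocytes overlapped, for example 0.722 to 8.86 RP counts per ERCC count in secondary-antral and 0.267 to 3.50 in primary oocytes after DRaqL. On this scale the median RP count was higher in secondary-antral oocytes, and the median of all counts higher still. A section of an oocyte also holds more or less of the cell, and its part in these values was not tested. GCs held 0.141 RP counts per ERCC count in the neighboring position with SMART-Seq v4, as the median of 17 cells.

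The RP share differed between sections of the same oocyte as well as between oocytes. The 16 sections of 8 oocytes held 3.43% ± 0.522. The median difference between the sections of an oocyte was 0.508 percentage points and the largest 1.02, and the SD between the means of the 8 oocytes was 0.423. This SD also holds spread between sections, so it is not on the scale of the differences.

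Within a pair, the share of the paralog differed by cell type and stage. Rps4l held 12.5% of the Rps4x and Rps4l counts in LCM mESCs (exact binomial 95% interval 12.4 to 12.7%), 23% in primary and 20.5% in secondary-antral oocytes, but 0.610% in neighboring and 1.37% in non-neighboring GCs. Intervals of this kind cover counting error only, since amplified reads are not independent molecules, and the cells spread further: 3.26 to 28.3% in LCM mESCs and 6.99 to 45.9% in secondary-antral oocytes. Rpl10l held 5.15% of its pair in LCM mESCs, 1.35 and 1.00% in primary and secondary-antral oocytes, and 0.159% in neighboring GCs. Rps27l, a p53 target, held 53.7% of its pair in LCM mESCs, 40.9% in primary and 28.4% in secondary-antral oocytes.

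Rpl22l1 held 48.0% of its pair in primary and 28.9% in secondary-antral oocytes with DRaqL-SC3-seq, 58.7 and 36.9% with SMART-Seq v4, 69.6 and 45.8% after DRaqL and 47 and 29.5% after formalin. The share was thus lower at the later stage in 4 of 4 preparations. Rpl7l1, a paralog of Rpl7 that works in ribosome assembly, held 6.60 and 11.1%, 9.71 and 22.2%, 10.7 and 22%, and 8.15 and 20.1%, higher at the later stage in 4 of 4, with levels of Rpl7l1 itself that differed by -0.01, -0.35, -0.69 and 0.53. Rpl39l held 10.6 and 16.9%, 11.1 and 26.1%, 11.7 and 28.3%, and 20.9 and 12.6%, higher at the later stage in 3 of 4. The order of the stages was not the same in every preparation for Rps27l and Rps4l either: Rps27l held 40.9 and 28.4%, 31.3 and 38.7%, 32.2 and 52.5%, and 9.06 and 41.7%, and Rps4l 23 and 20.5%, 17.8 and 23.8%, 36.7 and 29.3%, and 34.1 and 15.6%. In GCs prepared with SMART-Seq v4, 0 of 9493 pair counts of the 17 neighboring cells were Rpl39l, which allows a share of up to 0.0388%. In neighboring GCs of other preparations the share was higher, at 1.67% after DRaqL with the same kit, 2.53% with DRaqL-SC3-seq and 12.3% in the LCM cells of the split mouse, and the median cell held 0 counts of it in each of these.

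**Figure D4:**
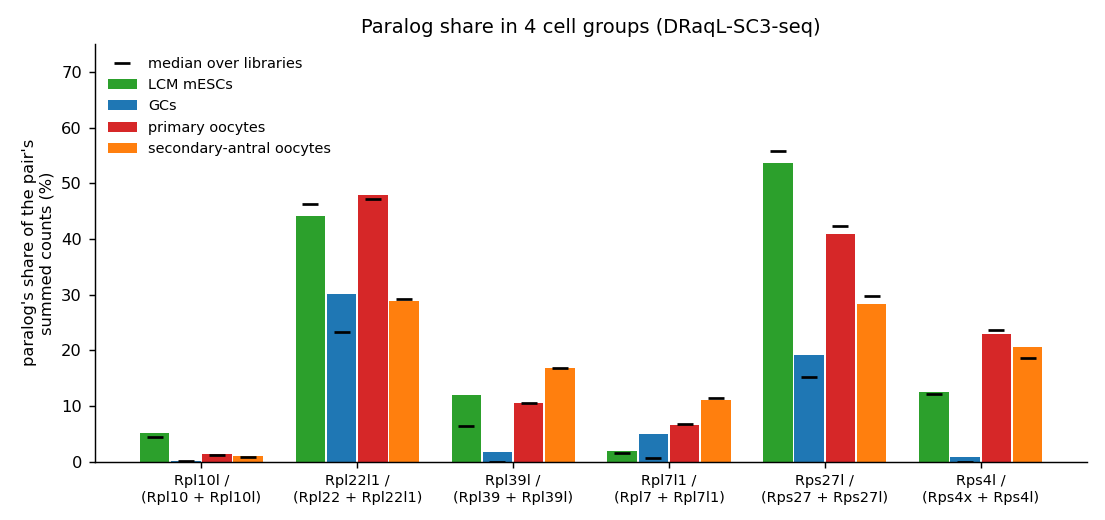
Share of each paralog in the summed counts of its pair (bars, %) in LCM mESCs, GCs, primary oocytes and secondary-antral oocytes (DRaqL-SC3-seq), with the median over libraries as a black dash. Rps4l holds 20.5% in secondary-antral oocytes and 0.610 to 1.37% in GCs; Rpl3l, near 0 throughout, is left out.

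Libraries ligated to Y-shaped adapters, which read whole cDNAs, counted exon and exon-exon junction reads in 10 mESCs and 5 secondary-antral oocytes. The 10 mESCs are given together, because of the doubt about their labels. RP genes held 28.1% (26.3 to 29.9%) of the exon reads of mESCs and 5.90% (4.07 to 8.23%) of those of oocytes, and 36.5% (35 to 39%) against 10.4% (7.46 to 13.7%) of the junction reads, as means with the lowest and highest library. Reads that matched several places were counted at each, so these shares are not on the scale of the 3′ counts. Of the pair's junction reads Rpl39l held 19.8% in mESCs and 15.8% in oocytes, and Rpl22l1 41.9 and 31%.

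RP genes also have many processed pseudogenes, and 3′ reads that fit a pseudogene better were counted there. In the 4 tables that listed noncoding genes, 260 rows named as RP pseudogenes took group medians of 34.3 to 42.0% of the reads of members and pseudogenes together. With SMART-Seq v4 and DRaqL the medians were 34.3% in primary and 37.9% in secondary-antral oocytes. Over all genes, members and pseudogenes together held 10.3% ± 0.898 in these primary and 4.34% ± 0.766 in these secondary-antral oocytes. For 25 of the 58 members with such rows in the SMART-Seq v4 table the pseudogenes took at least 50% of the reads, so the level of these members is a lower limit.

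The RP genes of neighboring and non-neighboring GCs differed by less than the spread of single cells with DRaqL-SC3-seq. The share was 9.33% ± 1.85 in 31 neighboring and 9.47% ± 2.75 in 26 non-neighboring GCs with DRaqL-SC3-seq. Of the 79 members kept, 0 were at least 2-fold higher (4.89% of all genes) and 0 lower (16.7%), with a median of -0.07 beside -0.21 over all genes. The lowest were Rplp2 at -0.51 and Rps20 at -0.49, and the highest Rpl5 at 0.44, each less than the SD over cells. The neighboring mean was the lower one in all 9 sets of GCs, from 4.17 against 4.19% after formalin to 14 against 17.4% in the pools. In the single cells the gap was widest with DRaqL and SMART-Seq v4, at 11% ± 1.77 (n = 20) against 12.8% ± 2.05 (n = 19), about 1 SD. Without the 16 GCs named above the DRaqL-SC3-seq difference (neighboring minus non-neighboring) was -0.297 percentage points, and without the cells numbered from 73 on, a choice made after the data were seen, it was 0.0628 percentage points, neighboring higher. Oocyte markers were higher in the neighboring cells of 9 of 9 sets, by medians from 157 against 155 to 2943 against 64.2 RPM.

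The pools put a test to the same question. Neighboring pools held 11.7 to 17.2% RP counts (median 14.2%) and non-neighboring pools 13.1 to 21.1% (median 16.9%), and the pools overlapped. In edgeR's quasi-likelihood test of 7 against 7 pools, 0 of 82 members were called higher and 0 lower at an adjusted p under 0.05, against 0.453% and 0% of the 9704 genes tested; DESeq2 also called 0 and 0. Before adjustment 17 members had p under 0.05, and 75 of 82 fold changes were below 0, with a median of -0.40 beside -0.01 over all genes. The lowest p belonged to Rps26, a small-subunit protein at the mRNA exit, with 1041 to 2118 RPM in neighboring pools (median 1530) and 1492 to 3470 RPM in non-neighboring pools (median 2574), a log2 fold change of -0.75 ± 0.21 (SE) and an adjusted p of 0.255 by edgeR. The other low fold changes were those of Rpl38 at -0.76, Rpl39 at -0.70, Rpl10a at -0.70 and Rpl36 at -0.69, and the highest those of Rps4l at 2.74 ± 1.58, Rpl10l at 1.88 ± 1.17 and Rpl7a at 0.28. Of the 14 oocyte markers 9 were called higher in the neighboring pools. The 6 theca markers summed to 1.70 to 1045 RPM (median 27.2) in neighboring and 17.8 to 3440 RPM (median 375) in non-neighboring pools, and the 3 blood markers to at most 16.5 and 1700 RPM, with a median of 0 in both; their part in the members' values was not tested. Rps4l and Rpl10l also stood higher in oocytes than in GCs among single cells, and the part of oocyte mRNA in the members' values was not tested. The stalk genes had -0.10 for Rplp0, -0.48 for Rplp1 and -0.47 for Rplp2. None of the 23 other TOP genes, 29 biogenesis genes and 76 mitochondrial ribosomal protein genes tested was called, with medians of -0.16, -0.05 and 0.08.

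Bulk GC samples, which took the granulosa of single sectioned follicles of early antral or undetermined stage, had a higher mean RP share than the pools. The share was 15.4 to 26.5% (median 22.2%) in 7 bulk samples against 11.7 to 21.1% (median 15.2%) in 14 pools, with overlap. In bulk or pooled cells, more cells of a type and more RNA per cell cannot be told apart, and cell number differed with the group. Of 82 members 5 rose and 0 fell (edgeR, adjusted p under 0.05), against 0.101% and 0% of the 11917 genes tested, so these 5 were among the 12 genes called in all. Before adjustment 45 members had p under 0.05, and the median fold change was 0.45 beside -0.09 over all genes, with 69 members above 0.

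Rpl32, a large-subunit protein, rose with the lowest p, with 3137 to 5212 RPM in bulk samples (median 4543) and 1155 to 3297 RPM in pools (median 2044). Its log2 fold change was 1.04 ± 0.17 (SE), with an adjusted p of 0.0292 by edgeR. Rpl41, the shortest RP, held 1878 to 7512 RPM (median 5755) against 825.3 to 3619 RPM (median 1803), a fold change of 1.29 ± 0.26. Rps27 held 1115 to 2641 RPM (median 1916) against 349.1 to 1776 RPM (median 784.4), a fold change of 1.21 ± 0.23. Rps24 held 1823 to 3028 RPM (median 2183) against 639.6 to 2032 RPM (median 1230), a fold change of 0.98 ± 0.19. For these 3 the adjusted p was 0.0374 by edgeR. Rps14 held 3760 to 5702 RPM (median 4246) against 1758 to 3662 RPM (median 2752), the only one of the 5 in which bulk samples and pools did not overlap, with a fold change of 0.77 ± 0.16 and an adjusted p of 0.0411 by edgeR. Rps27a at 0.76 and Rpl31 at 0.99 had adjusted p of 0.0528 and 0.0721 by edgeR. The lowest fold changes were Rpl10l at -1.20, Rpl7a at -0.96, Rpl14 at -0.82 (edgeR adjusted p 0.0882), Rpl7l1 at -0.69 and Rps4l at -0.56, and none of these was called. The calls rest on few samples: without bulk replicate 3, 5, 6 or 8 the number was 0, without replicate 1 it was 4, without 2 it was 8 and without 4 it was 18, and DESeq2 called 13 higher and 1 lower.

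**Figure D5:**
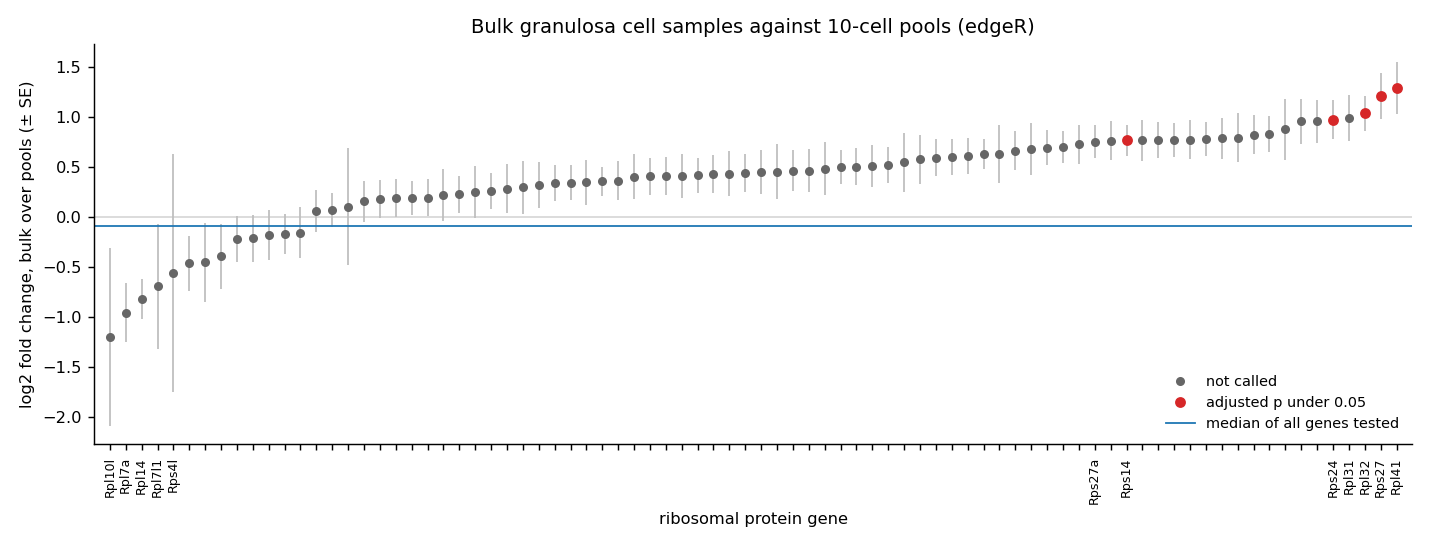
Log2 fold change of bulk GC samples over pools of 10 GCs (y axis, ± SE) for the 82 RP genes tested with edgeR, in order of size, with the 5 called genes in red and names for genes described in the text. The blue line is the median of all genes tested, -0.09; 69 of the 82 members are above 0.

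mESCs labelled fresh and LCM differed in their RP genes by less than the spread of the cells, and the doubt about these labels means that the direction below is that of the 3′-end labels. The share was 11.5% ± 1.80 in LCM cells and 10.7% ± 2.52 in fresh cells. Of 82 members kept, 0 were at least 2-fold higher (0.714% of all genes) and 0 lower (5.78%), with a median of 0.17 beside -0.14 over all genes. At the low end were the paralogs Rpl7l1 at -0.68, Rpl10l at -0.58 and Rps4l at -0.50, and Rpsa, Rps2 and Rps24 at the high end, at 0.45, 0.44 and 0.43.

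In the mouse whose ovaries were split, the RP share of oocytes differed between the routes by less than the spread of the cells, and that of GCs by more than 1 SD. Grown oocytes taken fresh held 1.24% ± 0.131 (n = 14) and LCM oocytes 1.22% ± 0.352 (n = 8). The fresh oocytes came from grown follicles and were handled with a cAMP analog, while the LCM oocytes were labelled secondary-antral. The route, the stage and the handling of these oocytes cannot be told apart. Of 79 members kept, 7 were at least 2-fold higher in LCM oocytes (16.8% of all genes) and 7 lower (18.7%), led by Rpsa at 1.91 and Rps6 at 1.30, and by Rps29 at -1.85 and Rps21 at -1.34; the median was 0.11 beside -0.07. Between difference and coding length, Spearman's rho was 0.42 over 78 members and 0.43 over all genes. GCs held 2.89% ± 1.78 by LCM (n = 70) and 5.83% ± 1.90 fresh (n = 35). The study describes some of these fresh GCs, more often those attached to oocytes, as holding profiles mixed with those of oocytes. None of these was left out here, and oocyte markers reached 19611 RPM in fresh and 28588 RPM in LCM GCs. Of 77 members kept, 36 were at least 2-fold lower by LCM (37.5% of all genes) and 1 higher (29.6%), with a median of -0.95 beside -0.30. The share of members was somewhat above that of all genes on the lower side and below it on the higher side. The lowest were Rps27l at -2.51, Rpl9 at -2.48 and Rps14 at -2.42, and the highest Rps12 at 1.29. For these GCs Spearman's rho between difference and coding length was 0.02 over 77 members and 0.64 over the 3039 genes of known length. The part of length in the members' values was not tested. Of the fresh libraries of this mouse 15 had under 100000 counts, and the fresh GCs came from cumulus-oocyte complexes of grown follicles while the LCM GCs came from sectioned follicles, so the route and the origin of the GCs cannot be told apart.

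With and without DRaqL in the lysis, the mean RP share differed by less than the SD of both groups in 5 of 6 pairs, and in secondary-antral oocytes by more than the smaller SD. The differences (with minus without DRaqL) were 0.892 and 2.04 percentage points for neighboring and non-neighboring GCs and -1.01 (SD 0.655 and 1.17) and -0.0300 for secondary-antral and primary oocytes with SMART-Seq v4. With Smart-seq2 against LCM-seq they were 0.0120 and 0.681 for neighboring and non-neighboring GCs.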

How the data were processed

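Libraries were of single mouse cells, pools of 10 and bulk samples. The authors trimmed the reads (fastp 0.20.0, cutadapt 1.16), mapped them with HISAT2 2.1.0 to GRCm38 and deposited counts per gene made with HTSeq 0.10.0 from reads within 10 kb of the 3′ ends, and exon and junction counts made with featureCounts 2.0.1; these deposited values are raw counts. From them, RPM of protein-coding counts was computed and averaged as log2(RPM + 1). Genes with a mean of both groups of at least 4 were kept. Groups of single cells were compared by size (2-fold), with no test. Pools and bulk samples were tested with edgeR 4.0.16 (quasi-likelihood, TMM, Benjamini-Hochberg over all genes tested, FDR 0.05), with DESeq2 1.42.0 as an alternative, in R 4.3.3. In simulated counts this test recovered 84% of 4-fold and 10% of 2-fold changes among 12620 genes for the pools. For bulk samples it recovered 95% and 14% among 13086 genes. The simulation gave every gene the same dispersion, so these rates need not hold for the members. The lack of a call does not show equal levels. Named genes were the 7 paralog pairs, Rplp0, Rplp1, Rplp2 and Rpsa, the 5 highest and 5 lowest members of each comparison and of the mean level, the 5 with the largest range between cell types, and the 2 highest and 2 lowest of each other list; others were chosen after their values were seen. Some of the genes this rule names are not reported here. Alternatives were another pseudocount, filter, scaling and tool, a replicate left out and the replicate block. The members and lists were chosen with earlier results of these data known. The number of sample columns without a sample was 0. Exact binomial intervals (95%) cover counting error only. Sequences are from RefSeq and GENCODE vM21, both on GRCm38.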

Additional observations from a re-analysis of the deposited data

Results flagged for a closer look

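In the 9 groups of 4 to 10 samples that were checked for a sample far from the others, 0 samples stood apart in RP share.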

How the results depend on the processing

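Of 186 values under alternatives, 173 stayed within the spread of the libraries or within 1.5 times the main count. In the comparisons between groups no called direction reversed. Between GC positions the median was -0.07 and turned to 0.08 with TMM scaling, and for the oocytes of the split mouse the share difference went from -0.0129 to 0.00357 with medians over libraries, both within the spread. Counts of members past 2-fold moved in 4 cases: between GC positions from 0 to 1 and between pools from 0 to 2 without the filter on low values, for LCM against fresh oocytes of the split mouse from 14 to 9 with a pseudocount of 10, and for its GCs from 37 to 23 with TMM scaling. Of the tests, bulk against pools depended on the setting, with 5 members called in the main analysis, 14 by DESeq2, 3 with DESeq2 size factors in edgeR, 20 without the low-count filter and 0 to 18 without 1 bulk replicate. With the pool number as replicate block 0 members were called (3 genes in all). Before adjustment 44 members then had p under 0.05 by edgeR, against 17 without the block. Fold changes below 0 numbered 79 of 82 with the block and 75 without it. Pools of the same number had correlations of 0.01 to 0.19 in their deviations from the group means. Neighboring pools 1, 6 and 7 correlated most with the non-neighboring pool of their own number. What the pool number shares is not in the labels, so the numbers were not taken as pairs in the main test. Without 1 pool number the count of called members was 0 throughout. Leaving out 1 replicate put the share difference of pools between -3.79 and -2.97 and that of bulk samples between 4.86 and 6.71. The log2 ratio of mean RPM, the removal of cells numbered from 73 and the addition of pseudogene rows were chosen after the data were seen; the last gave -2.98 for pools and 4.63 for bulk samples. Depth limits Rpl39l, Rpl10l and Rps4l in GCs, where most single libraries hold a few counts or none.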
